A study of Mus musculus with 44 samples.

Results

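Heterotrimeric G proteins carry signals from receptors that span the membrane to enzymes and channels inside the cell. An alpha subunit binds GDP or GTP, and a beta and a gamma subunit, which stay bound to each other, join it in the resting state. An active receptor exchanges the GDP for GTP, the alpha subunit and the beta-gamma dimer then act on their effectors, and RGS proteins (regulators of G protein signalling) speed up the hydrolysis of GTP that ends the signal. In the striatum, receptors for dopamine, adenosine and opioids and the muscarinic receptors for acetylcholine act through these proteins.

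Genes of the alpha, beta and gamma subunits and of the numbered RGS proteins were compared here between the striata of C57BL/6J (B6) and DBA/2J (D2) mice. The members were taken by gene symbol from the annotation of the arrays, without Gnal, Gng7 and Rgs9, which are the forms known for the striatum and appear below only beside the others. This gave 46 genes (14 alpha, 5 beta, 9 gamma and 18 RGS) of 18101 genes with a single symbol on either array. The choice went by symbol and not by measured values, but it was made with earlier results of these data known. The inbred mice were adult and had received no treatment. On the Affymetrix MOE 430 2.0 array, with several short probes per probeset, 20 mice were measured (5 of each strain and sex). The Illumina MouseRef-8 v2.0 array, with 50-base probes on beads, was used for 24 male mice (12 of each strain). Each mouse had 1 array, and the age in days and the storage of each tissue piece (frozen or in a preserving solution) are not given per mouse in the sources used here.

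The Affymetrix values are log2 values made by RMA, and the table gives them for 91 of the 108 member probesets, which cover 45 genes. Each gene of the other 17 probesets has at least 1 further probeset with values. The Illumina values are on the VST scale, a variance-stabilised scale that approaches log2 at high signal, and cover 34 genes with 43 probes. Both arrays measured 33 member genes, 12 were on the Affymetrix array alone, and Gng5 was on the Illumina array alone, because its Affymetrix probesets also carry the symbol of a pseudogene. All differences are B6 minus D2, and a probe was called at an adjusted p under 0.01 from limma over the whole table.

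One array stood between the strains. With D2 set to 0 and B6 to 1, the array labelled B6 female 64 had a position of 0.51 over 390 probesets, while the other B6 arrays had 0.977 to 1.02 and the D2 arrays −0.00891 to 0.0233. These probesets were those at which the other arrays separated the strains without overlap and by more than 1 in the mean. The positions of the other arrays near 0 and 1 thus follow from the choice, in which array 64 had no part. Array 64 was kept in its labelled group, and results are also given without it where they change. The mean bead signal of the Illumina arrays was 1223 to 1822 in B6 and 599 to 1849 in D2, with D2 arrays 3, 5, 6 and 12 the dimmest. Markers of striatal projection neurons had a mean log2 level of 11.15 to 12.13 in B6 and 11.10 to 11.70 in D2 on the Affymetrix arrays. Of these genes 2 of 9 were called there and 2 of 8 on the Illumina arrays, Bcl11b and Scn4b in both cases and higher in B6 (Scn4b by 1.11 on the Affymetrix and 0.51 on the Illumina scale). Called genes of other cell types on the Illumina arrays included 6 of 7 oligodendrocyte and 4 of 8 microglial markers, all higher in B6, where 10.5% of all genes were called. The mean levels of these lists did not overlap there (oligodendrocytes 12.30 to 12.75 in B6 and 11.84 to 12.24 in D2, microglia 9.94 to 10.05 in B6 and 9.58 to 9.81 in D2). On the Affymetrix arrays 1 of 7 oligodendrocyte and 4 of 9 microglial markers were called, all higher in B6, where 10.3% of all genes were called, and the levels overlapped (oligodendrocytes 11.22 to 11.94 in B6 and 10.62 to 11.72 in D2, microglia 8.57 to 8.94 in B6 and 8.35 to 8.61 in D2). The microglial markers called on the Illumina arrays were C1qa, C1qb, C1qc and Tyrobp. Aif1 (−0.14), Cx3cr1 (0.10), P2ry12 (0.05) and Tmem119 (0.10) were not called there. On the Affymetrix arrays C1qb, C1qc, Tmem119 and Tyrobp were called. C1qa (0.10), Csf1r (−0.055), Cx3cr1 (−0.063), Itgam (−0.064) and P2ry12 (−0.20) were not. Of 7 astrocyte markers, Slc1a2 was called lower in B6 on both arrays (−1.54 Affymetrix and −0.45 Illumina). Aldoc was called higher in B6 on the Affymetrix arrays alone (0.57). Of the endothelial and mural markers, Pdgfrb and Vtn were called higher in B6 on the Affymetrix arrays and none on the Illumina arrays. The part of cell composition in the values of the G protein genes was not tested, and in such bulk RNA fewer cells of a type and less RNA per cell cannot be told apart.

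Of the beta subunits 2 of 5 were called on both arrays. No alpha subunit (14 and 9 genes) and no gamma subunit (8 and 7 genes) was called, beside 10.3% and 10.5% of all genes. The classes hold few genes and were not tested against each other. On the Affymetrix arrays 4 of 91 member probesets were called (4.4%), 1 higher in B6 and 3 lower in B6, against 7.18% of all 38870 probesets. They belong to Gnb1 and Gnb4, lower in B6, and to Rgs20, higher in B6, so that 3 of 45 member genes were called, against 10.3% of all genes on that array. On the Illumina arrays 4 of 43 member probes were called (9.3%), 1 higher in B6 and 3 lower, against 8.64% of all 14185 probes. These belong to Gnb1 and Gnb4, again lower in B6, and to Rgs16, higher in B6, or 3 of 34 member genes (8.82%) against 10.5% of all genes there. The share of members called was thus close to or below that of all features. The median difference over member genes was −0.054 on the Affymetrix arrays, beside −0.035 over all genes, and −0.0366 on the Illumina arrays, beside −0.0242 over all genes.

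Of the 33 member genes on both arrays, Gnb1 and Gnb4 were called on both in 1 direction, which is 2 of 33, while over all 8948 shared genes this held for 4.44%. Rgs16 was called on the Illumina arrays alone and 30 genes on neither. Differences had the same sign on both arrays for 20 of the 33. B6 and D2 values were fully separated at 2 member probesets, both of Gnb1 (2.46% of all probesets), and at 2 member probes on the Illumina arrays, 1 of Gnb1 and 1 of Gnb4 (2.4% of all probes).

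**Figure D1:**
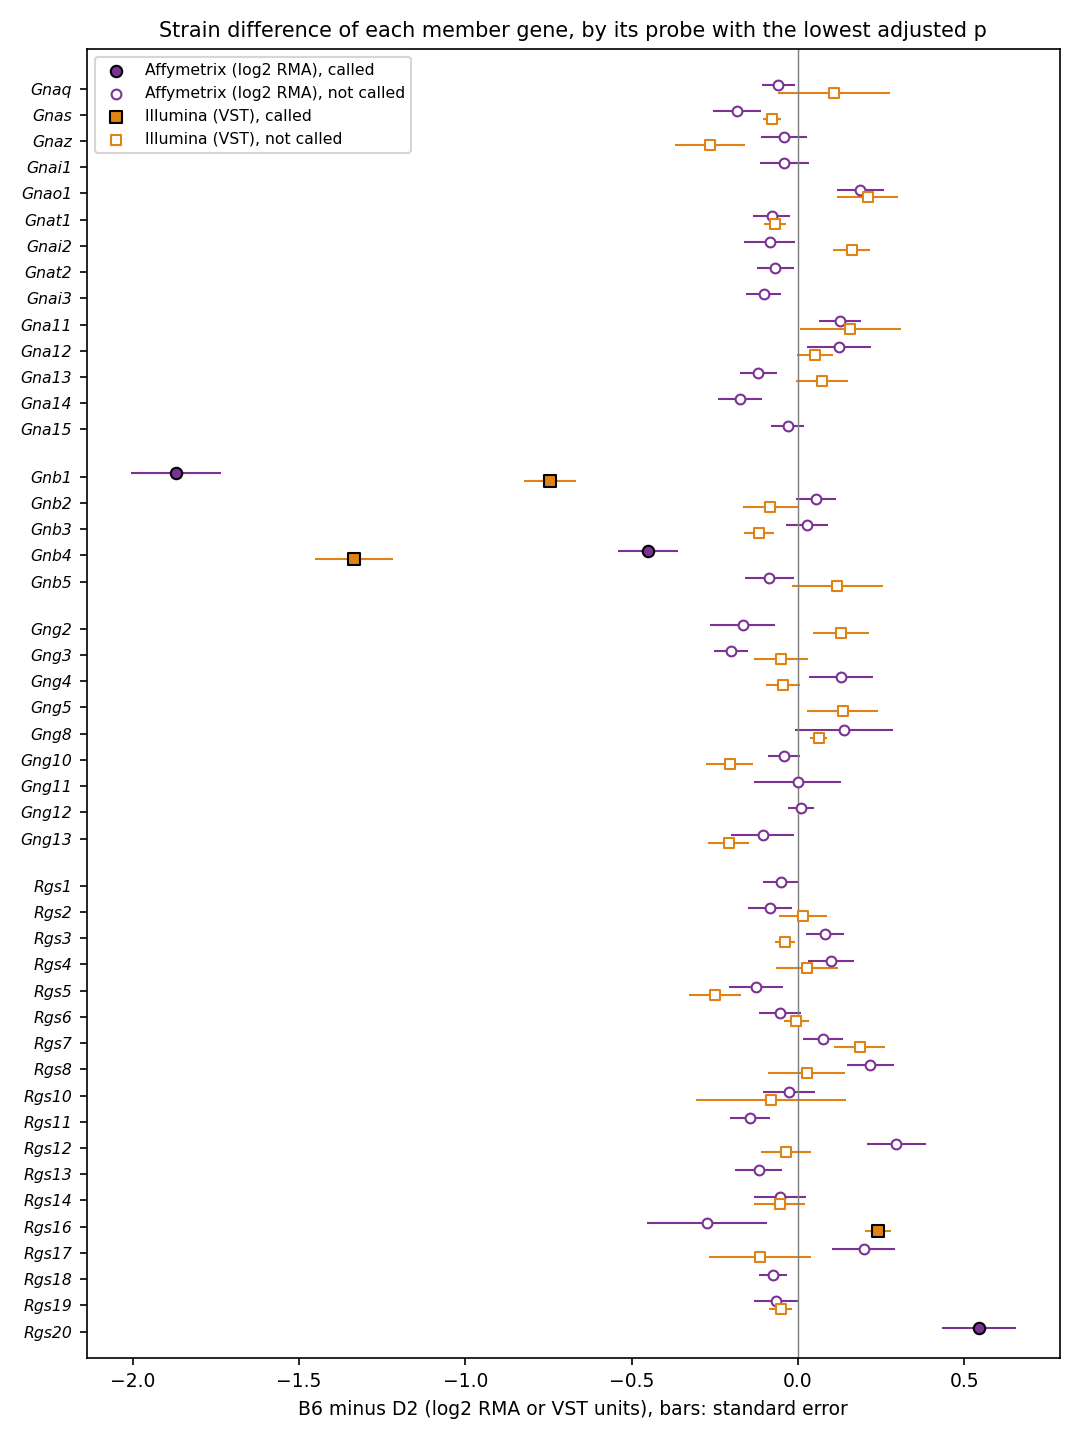
Difference between strains, B6 minus D2, for each member gene (the probe of lowest adjusted p), with circles for Affymetrix (log2 RMA) and squares for Illumina (VST), bars for the standard error and filled symbols for called differences. Gnb1 (−1.87 Affymetrix and −0.75 Illumina) and Gnb4 (−0.45 and −1.33) lie to the left on both arrays. Rgs20 (Affymetrix) and Rgs16 (Illumina) are called to the right of 0, while the Affymetrix point of Rgs16 lies at −0.27. The points that were not called lie between −0.27 and 0.30.

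Gnb1 encodes the beta 1 subunit, a widely expressed partner in G protein dimers. At probeset 1454696_at its log2 value was 9.75 at the lowest, 10.25 at the median and 11.36 at the highest in the 10 B6 mice, and 12.08, 12.14 and 12.33 in the 10 D2 mice. At 1417432_a_at the same 3 values were 8.05, 8.49 and 9.75 in B6 and 9.92, 10.12 and 10.33 in D2. Every B6 array lay below every D2 array at both probesets, and the highest B6 value at both was that of array 64. The differences were −1.87 (standard error 0.136, limma adjusted p = 9.03e-10) and −1.61 (standard error 0.142, limma adjusted p = 2.07e-08), which puts B6 at 0.274 and 0.328 times the D2 level. The 9 other B6 arrays ranged from 9.75 to 10.63 and from 8.05 to 8.64. Without array 64 the differences were −1.99 and −1.75.

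On the antilog scale array 64 stood at 0.578 and 0.330 of the way from the D2 mean to the mean of the other B6 arrays. The spread was wider in B6 (SD 0.45 and 0.48) than in D2 (SD 0.08 and 0.12), and without array 64 the B6 SD was 0.27 and 0.21. The third Gnb1 probeset, 1425908_at, is among the dim ones of the array (mean at the 8.47th percentile of all probesets) and gave 3.67 ± 0.16 in B6 and 3.76 ± 0.14 in D2 (SD, n = 10 each), with no call (limma adjusted p = 0.530).

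The Illumina arrays repeated the Gnb1 comparison in other mice. Probe ILMN_2733852 had VST values of 10.14, 10.55 and 10.88 in the 12 B6 mice (lowest, median and highest) and 10.94, 11.33 and 11.60 in the 12 D2 mice. The groups did not overlap, although the highest B6 array and the lowest D2 array, D2 array 6, were close to each other. The difference was −0.75 (standard error 0.0776, limma adjusted p = 5.99e-08). The bead signal before normalization had a median of 1665 in B6 and 2625 in D2. The difference stayed called on leaving out each array in turn, between −0.78 and −0.71.

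Gnb4 encodes another beta subunit, close to beta 1 in sequence. It had 2 Illumina probes, and the difference between strains was of unequal size at them. ILMN_2726905 had VST values of 9.35, 9.68 and 9.83 in B6 and 10.19, 11.09 and 11.32 in D2, with no overlap, and a difference of −1.33 (standard error 0.116, limma adjusted p = 2.25e-09). Its D2 values fell into 10 arrays from 10.77 upward and D2 arrays 5 and 12, at 10.24 and 10.19. Arrays 5 and 12 are among the dimmest (mean bead signal 985 and 883). D2 arrays 3 and 6 are dimmer still (784 and 599) and were in the upper group. The bead signal had a median of 733 in B6 and 2581 in D2. ILMN_1240125 had 9.92, 10.24 and 10.61 in B6 and 10.35, 10.52 and 10.85 in D2, and the groups overlapped. Its difference was −0.30 (standard error 0.0708, limma adjusted p = 0.00460). Without the 4 dimmest D2 arrays it was no longer called (−0.26, limma adjusted p = 0.0303).

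The Illumina probes of Gnb1 and Gnb4 are shown because array probes follow the B6 reference sequence, and the comparison rests on how each probe pairs with the RNA of either strain. Each line gives bases 11 to 40 of a 50-base probe, 5′ to 3′, decoded from the probe's identifier in the deposited table.
Gnb1 ILMN_2733852: atgtgccggcagacctttacaggacacgag
Gnb4 ILMN_2726905: ttctgttctccaatgatacctggagaaatc
Gnb4 ILMN_1240125: aacagacagctctcctcttcagttctctcc
Over their whole length the Gnb4 probes share no run of more than 6 bases, so they read separate stretches of the transcript. Illumina probes that span a sequence difference between the strains were not removed here, and the part of such differences in the values was not tested.

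The Affymetrix values of Gnb4 also differed by probeset. At 1419469_at they were 7.94, 8.25 and 8.51 in B6 and 8.36, 8.73 and 9.08 in D2 (lowest, median and highest), and the strains overlapped at the edges. The difference was −0.45 (standard error 0.0900, limma adjusted p = 0.00116), or 0.732 times the D2 level in B6. With the mice of 1 sex alone it was −0.48 in females and −0.42 in males, and in neither sex was it called (limma adjusted p = 0.0532 and 0.0653). These fits had 5 mice of each strain and called 2.52% and 3.14% of all probesets, against 7.18% with all mice. Probesets 1439632_at (−0.17, limma adjusted p = 0.464) and 1419470_at (−0.02, limma adjusted p = 0.927) were not called, and 1419470_at had the same median of 9.28 in B6 and in D2.

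**Figure D2:**
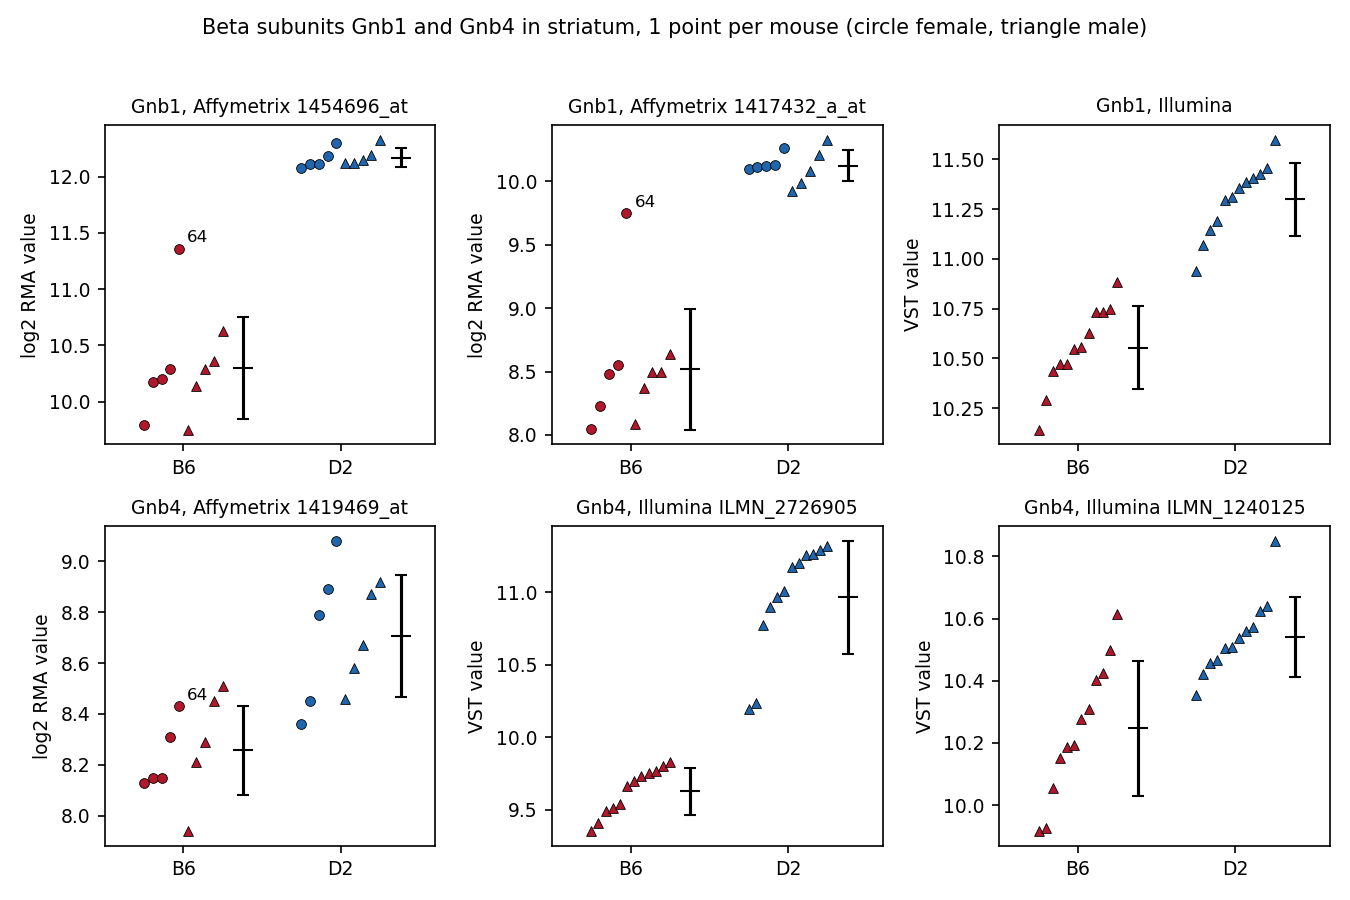
Values of Gnb1 (upper row) and Gnb4 (lower row) in each mouse, with log2 RMA values on the Affymetrix and VST values on the Illumina arrays, circles for females and triangles for males, ordered by sex and value within a strain, and the mean with its SD at the right of each group. The B6 points lie below the D2 points without overlap in the 3 Gnb1 panels and at ILMN_2726905, and the B6 array numbered 64 is nearest to the D2 points at Gnb1.

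The other beta subunits gave no call. Gnb5, the form that pairs with RGS proteins of the family of Rgs7 in place of a gamma subunit, had log2 values of 10.73, 11.05 and 11.37 in B6 and 10.98, 11.17 and 11.37 in D2 at 1422208_a_at. The difference was −0.09 (standard error 0.0736, limma adjusted p = 0.553). Its Illumina probes differed by 0.12 and 0.05 (limma adjusted p = 0.587 and 0.682). Gnb2 gave 0.06 (Affymetrix) and −0.08 (Illumina), Gnb3, known from the retina, gave 0.03 and −0.12, and neither was called.

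Rgs20 was the called RGS gene of the Affymetrix arrays. It belongs to a small RGS family known for acting on the alpha subunit Gz. At 1421493_a_at its log2 values were 7.32, 7.98 and 8.51 in B6 and 7.07, 7.38 and 7.71 in D2. All B6 arrays but number 67, the lowest, lay above every D2 array. The difference was 0.54 (standard error 0.111, limma adjusted p = 0.00137), a B6 level of 1.46 times that of D2. It stayed called on leaving out each array in turn (0.48 to 0.62). In males alone, with 5 mice of each strain, it was not called (0.56, limma adjusted p = 0.143). Probeset 1443694_at pointed the same way without passing the threshold, with 9.23, 9.70 and 9.99 in B6 and 9.16, 9.37 and 9.76 in D2 and a difference of 0.28 (standard error 0.0839, limma adjusted p = 0.0336). Without B6 array 67, its lowest B6 array, it was called (0.32, limma adjusted p = 0.00601). At 1446199_at the difference was −0.06 (limma adjusted p = 0.411). No Illumina probe of Rgs20 was in the normalized table, so the difference has no repeat in other mice. Gnaz, the gene of Gz, had log2 values of 7.90 ± 0.14 in B6 and 7.94 ± 0.18 in D2 at 1435268_at (SD, n = 10 each, limma adjusted p = 0.786). Its VST values were 12.10 ± 0.20 in B6 and 12.36 ± 0.33 in D2 (SD, n = 12 each, limma adjusted p = 0.0952).

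Rgs16, an RGS protein that acts on alpha subunits of the Gi and Gq families, was called on the Illumina arrays. Probe ILMN_2600744 had VST values of 9.12, 9.25 and 9.46 in B6 and 8.94, 8.99 and 9.19 in D2, and the highest D2 array, number 3, was the one D2 array inside the B6 range. The difference was 0.24 (standard error 0.0397, limma adjusted p = 7.31e-05). The probe is dim, with a median bead signal of 477 in B6 and 315 in D2 and a mean at the 28.8th percentile of probes, and it was detected on 12 B6 arrays and 11 D2 arrays. With log2 bead signals centred on the median of each array the call was lost (0.33, limma adjusted p = 0.0257).

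**Figure D3:**
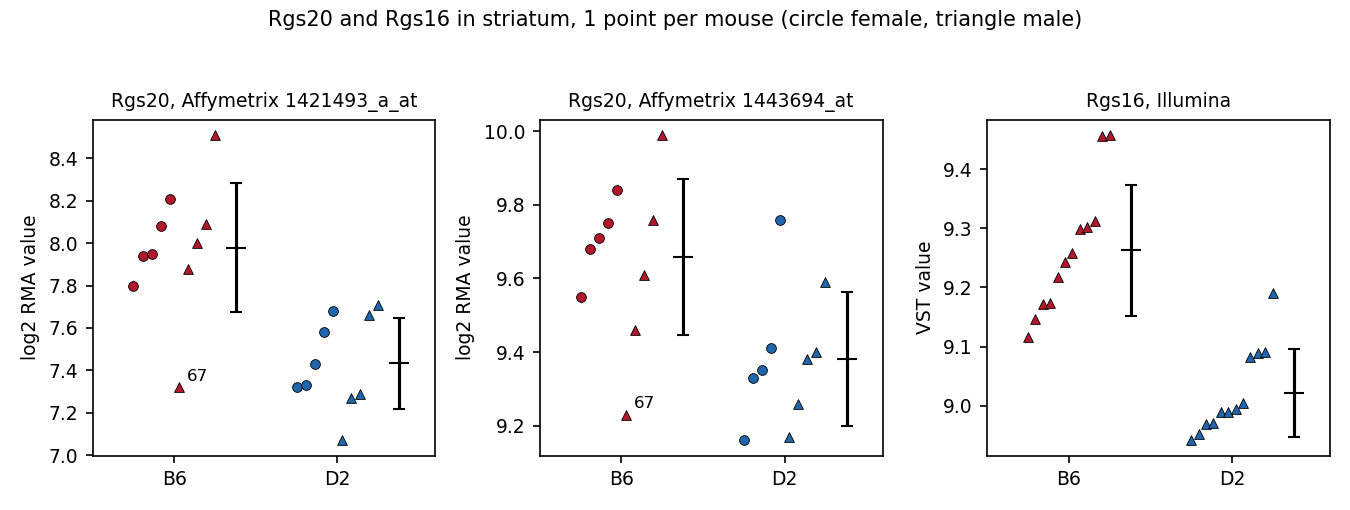
Values of Rgs20 (2 Affymetrix probesets, log2 RMA) and Rgs16 (Illumina, VST) in each mouse, with circles for females and triangles for males, ordered by sex and value within a strain, and the mean with its SD at the right of each group. Most B6 points lie above the D2 points in each panel, with B6 array 67 the lowest of its strain for Rgs20.

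The 3 Affymetrix probesets of Rgs16 were not called, and the arrays of each strain were far apart. At 1426037_a_at the log2 values were 5.88, 6.195 and 8.87 in B6 and 5.90, 6.45 and 7.66 in D2, with an SD of 0.95 in B6 and 0.61 in D2, and the standard error of the difference, 0.328, was the largest of the members, which started at 0.0396. The probeset with the lowest adjusted p, 1451452_a_at, ran from 6.09 to 7.62 in B6, with a mean of 6.54 ± 0.45, and from 6.14 to 7.39 in D2, with a mean of 6.81 ± 0.42 (SD, n = 10 each, difference −0.27, standard error 0.180, limma adjusted p = 0.408). At 1455265_a_at the difference was 0.06 (limma adjusted p = 0.883). The highest B6 value at all 3 was that of array 67.

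Array 67 stood apart on several marker lists. Among the 20 Affymetrix arrays it had the highest mean level of thalamus, choroid plexus (9.81) and oligodendrocyte markers (11.94) and the lowest of cortex and hippocampus markers (7.34). Its level of striatal projection neuron markers, 11.15, was the lowest in B6, where the other arrays had 11.60 to 12.13. The mean log2 level of 6 genes that mark thalamus, a region next to the striatum (Tcf7l2, Lef1, Prkcd, Rora, Slc17a6 and Calb2), was 7.72 to 10.47 in B6, with array 67 at 10.47, and 7.75 to 9.61 in D2, and none of the 6 was called between strains. Over the 20 Affymetrix arrays, Rgs16 at 1426037_a_at followed this level (Pearson r = 0.914, Spearman rho = 0.859, with BH-adjusted permutation p = 4e-05 and 6e-05, the smallest unadjusted p that 100000 permutations give here being 1e-05). Without the 2 arrays farthest from the median of the marker level r was 0.848. Within strains r was 0.953 in B6 (n = 10, permutation p = 3.4e-04) and 0.900 in D2 (n = 10, permutation p = 3.6e-04). The other Rgs16 probesets had r of 0.902 and 0.875. Gng8, a gamma subunit known from olfactory neurons and the habenula, followed the same level at 1457755_at, with r = 0.801 and rho = 0.733 (BH-adjusted permutation p = 6e-05 and 6.8e-04), r = 0.646 without the 2 farthest arrays, and r = 0.893 in B6 and 0.808 in D2. Its log2 values were 5.97, 6.21 and 7.38 in B6 and 5.69, 6.09 and 6.78 in D2, with array 67 again the highest.

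The level of choroid plexus markers moved with the same genes on the Affymetrix arrays. For Rgs16 at 1426037_a_at r was 0.647 and rho 0.798 (BH-adjusted permutation p = 0.00398 and 9.6e-05), r was 0.618 without the 2 farthest arrays, 0.768 in B6 and 0.613 in D2, and for its other probesets r was 0.723 and 0.539. For Gng8 r was 0.435 and rho 0.562 (BH-adjusted permutation p = 0.0713 and 0.0167), with r of 0.332 without the 2 farthest arrays, 0.545 in B6 and 0.487 in D2.

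No such correlation was found on the Illumina arrays (BH-adjusted permutation p of the choroid plexus relations from 0.221 to 0.829). The marker level ranged from 9.79 to 10.47 in B6 and from 9.93 to 10.60 in D2 over 5 of the genes. The correlation was −0.09 for Rgs16 (rho −0.12, BH-adjusted permutation p = 0.679 and 0.633) and −0.27 for Gng8 with thalamus markers (rho −0.26, BH-adjusted permutation p = 0.267 and 0.254). These relations, 12 with those of the choroid plexus, were chosen after the values of Rgs16 and Gng8 had been seen. Their p-values take no account of that choice. The other marker lists, some of which also had array 67 as the highest or lowest, were not set against these genes. The correlations within B6 include array 67. The part of the dissection in the Rgs16 and Gng8 values was not tested.

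**Figure D4:**
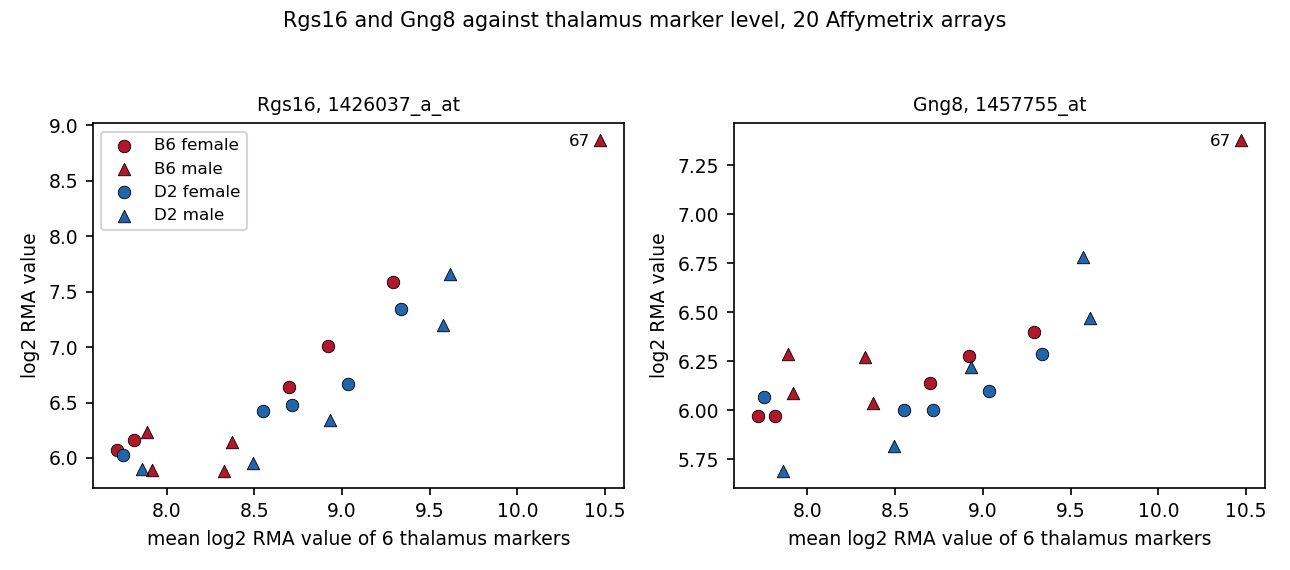
Log2 RMA value of Rgs16 (left) and Gng8 (right) on each of the 20 Affymetrix arrays against the mean log2 value of 6 thalamus markers on the same array, by strain and sex. Both genes are highest on B6 array 67, which has the highest marker level, and the points of the strains lie among each other.

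None of the 14 alpha subunits measured on the Affymetrix arrays or of the 9 on the Illumina arrays was called by limma, with 4 genes on each at an unadjusted p under 0.05 (28.6% and 44.4%, beside 30.5% and 35.2% of all genes). The 36 alpha probesets differed by −0.18 to 0.19 and the 12 Illumina probes by −0.26 to 0.21. Gnas encodes Gs, which activates adenylyl cyclase. Its probeset 1453413_at had 6.23 ± 0.15 in B6 and 6.41 ± 0.19 in D2 (SD, n = 10 each), a difference of −0.18 (standard error 0.0727, limma adjusted p = 0.120). The Illumina probe with the lowest adjusted p, ILMN_3075080, had 8.91, 9.02 and 9.09 in B6 and 8.98, 9.09 and 9.20 in D2 (−0.08, limma adjusted p = 0.0640). It is dim, at the 22.3rd percentile of probes, and was detected on 11 B6 and 11 D2 arrays. The brighter Gnas probes ILMN_1223437 and ILMN_2632206 differed by −0.08 and 0.07 (limma adjusted p = 0.635 and 0.856). None passed, and 2 further Gnas probesets have no values in the table.

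Gnao1 encodes Go, the main alpha subunit of neurons. At 1448031_at it had log2 values of 7.84, 7.94 and 8.43 in B6 and 7.49, 7.85 and 7.96 in D2 (difference 0.19, standard error 0.0713, limma adjusted p = 0.103). At its brightest probeset, 1421152_a_at, the difference was 0.03. The Illumina probe with the lowest adjusted p, ILMN_2753422, had 11.06, 11.65 and 11.78 in B6 and 10.96, 11.49 and 11.75 in D2 (0.21, limma adjusted p = 0.128). At the brighter Illumina probe, ILMN_2773191, the difference was −0.05 (limma adjusted p = 0.757). The strains overlapped on both arrays. Gnaq encodes Gq, the activator of phospholipase C beta. Its 6 probesets differed by −0.06 to 0.02. At 1455729_at it had 10.57, 10.84 and 11.08 in B6 and 10.78, 10.90 and 11.03 in D2 (limma adjusted p = 0.547). Its Illumina probe had 11.67, 12.27 and 12.65 in B6 and 10.69, 12.32 and 12.68 in D2 (0.11, limma adjusted p = 0.692). Gnai1, an inhibitory subunit of the Gi family, was on the Affymetrix array alone, with 8.59, 8.94 and 9.23 in B6 and 8.71, 9.03 and 9.12 in D2 at 1427510_at (−0.04, limma adjusted p = 0.809). Gnai2 of the same family differed by −0.09 and 0.16 on the 2 arrays (limma adjusted p = 0.580 and 0.0512).

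Gamma subunits were called on neither array, with 1 of 8 genes on the Affymetrix and 3 of 7 on the Illumina arrays at an unadjusted limma p under 0.05 (12.5% and 42.9%, beside 30.5% and 35.2% of all genes). The 13 gamma probesets differed by −0.20 to 0.14 and the 8 Illumina probes by −0.21 to 0.13. Gng3, a gamma subunit of neurons, lay nearest to the threshold. Its only probeset, 1417428_at, had 11.68, 11.88 and 12.04 in B6 and 11.94, 12.07 and 12.23 in D2, with a difference of −0.20 (standard error 0.0517, limma adjusted p = 0.0107). It was called without array 64 (−0.21, limma adjusted p = 0.00869), which brought the called member probesets to 5, beside 7.69% of all probesets. The same held for Gng3 on leaving out B6 array 61, 66 or 68 or D2 array 78. It was also called with the upper 50% of probesets alone, with added quantile normalization, with a variance trend and with an estimated share of true nulls (limma adjusted p = 0.00883, 0.00690, 0.00719 and 0.00695). The Illumina probe gave 9.67, 10.11 and 10.48 in B6 and 9.97, 10.11 and 10.62 in D2, a difference of −0.05 (limma adjusted p = 0.702), and thus no repeat in other mice.

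Gng2, a widely expressed form, had 7.44, 8.03 and 8.44 in B6 and 7.96, 8.18 and 8.38 in D2 at 1418452_at (−0.17, limma adjusted p = 0.342). On the Illumina arrays it differed by 0.13 at 1 probe and −0.10 at the other (limma adjusted p = 0.308 and 0.478). Gng4 had 7.90, 8.16 and 8.73 in B6 and 7.79, 8.05 and 8.39 in D2 at 1417943_at (0.13, limma adjusted p = 0.478), and its Illumina difference was −0.04 (limma adjusted p = 0.597). Both genes thus had opposite signs at different probes, and all ranges overlapped. On the Illumina arrays Gng13 (−0.21, limma adjusted p = 0.0236) and Gng10 (−0.21, limma adjusted p = 0.0533) did not pass. Gng13 was called without D2 array 1 (−0.23, limma adjusted p = 0.00866) or D2 array 11, and Gng10 without D2 array 6 (−0.25, limma adjusted p = 0.00772), while their Affymetrix differences were −0.11 and −0.04 (limma adjusted p = 0.570 and 0.672).

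Rgs20 was thus the 1 called of 18 RGS genes on the Affymetrix arrays and Rgs16 the 1 called of 13 on the Illumina arrays. Of all genes 10.3% and 10.5% were called there. The 31 other RGS probesets differed by −0.27 to 0.30 and the 15 other Illumina probes by −0.25 to 0.19. Rgs4, an abundant RGS protein of forebrain neurons, had 12.01, 12.33 and 12.74 in B6 and 12.09, 12.26 and 12.37 in D2 at 1416286_at (0.10, standard error 0.0688, limma adjusted p = 0.441). Its Illumina values were 13.84, 14.18 and 14.63 in B6 and 13.76, 14.19 and 14.49 in D2 (0.03, limma adjusted p = 0.863). Rgs2, known for its preference for Gq, had 5.03, 5.22 and 5.58 in B6 and 5.20, 5.37 and 5.47 in D2 at 1443250_at (−0.08, limma adjusted p = 0.514), while its brighter probesets differed by −0.06 and 0.02 and the Illumina probe by 0.02. For both genes the ranges of the strains overlapped.

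Rgs7, a partner of Gnb5, had 9.86, 10.07 and 10.17 in B6 and 9.77, 9.92 and 10.29 in D2 (0.08, limma adjusted p = 0.510). On the Illumina arrays it had 11.61, 11.79 and 12.10 in B6 and 11.28, 11.62 and 12.12 in D2 (0.19, limma adjusted p = 0.103). Rgs8, of the same family as Rgs4, had 9.61, 9.83 and 10.24 in B6 and 9.37, 9.67 and 9.85 in D2 (0.22, standard error 0.0701, limma adjusted p = 0.0471), against an Illumina difference of 0.03 (limma adjusted p = 0.902). Rgs8 and Rgs16 are direct neighbours among protein-coding genes of the RefSeq annotation (GRCm38.p6), as are Rgs4 and Rgs5.

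Rgs10, known from microglia and neurons, had 9.66, 9.92 and 10.11 in B6 and 9.56, 9.87 and 10.23 in D2 (−0.03, limma adjusted p = 0.890). Its Illumina values were 10.35, 12.67 and 13.00 in B6 and 11.46, 12.66 and 13.00 in D2 (−0.08, limma adjusted p = 0.835) and a standard error of 0.225, the largest among Illumina member probes that were not called. Rgs14, which also binds inactive alpha subunits of the Gi family, had 9.33, 9.92 and 10.16 in B6 and 9.82, 9.92 and 10.17 in D2 (−0.05, limma adjusted p = 0.752), and −0.06 on the Illumina arrays (limma adjusted p = 0.654). The strains overlapped for both genes. Rgs12 passed at 0.05 but not at 0.01 at 1 of 3 probesets (0.30, limma adjusted p = 0.0320), as did Rgs5, a gene of pericytes, on the Illumina arrays (−0.25, limma adjusted p = 0.0312).

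Sex made no called difference among the members. The test of females minus males on the Affymetrix arrays called 0 of 91 member probesets (2 at an unadjusted p under 0.05), against 0.0412% of all probesets. Rgs5 at 1420941_at had means of 8.64 in B6 females and 8.37 in B6 males, and 8.76 in D2 females and 8.36 in D2 males (0.34, standard error 0.0903, unadjusted limma p = 0.00122, adjusted p = 0.742). Gnai3 at 1428645_at had a difference of −0.12 (adjusted p = 0.999). The strain difference itself was tested between the sexes and called at 0 of 91 member probesets (1 at an unadjusted p under 0.05, Gnao1 at 1460383_at), as at 0% of all probesets. In simulated data of this design, that test recovered 1.54% of differences of 0.3, 32.3% of 0.6 and 94.5% of 1.2. Small differences between the sexes could thus go uncalled. For Gnb1 at 1454696_at the strain differences of females and males were 0.16 apart (standard error 0.276), with means of 10.4 in B6 females and 12.2 in D2 females and of 10.2 in B6 males and 12.2 in D2 males.

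Genes that act with these subunits were taken from lists of effectors, binding partners, and receptor kinases and arrestins. These counts stand beside 10.3% of all genes called on the Affymetrix and 10.5% on the Illumina platform. Among effectors 1 of 20 was higher and 2 were lower in B6 on the Affymetrix arrays, and 1 of 15 was higher and 1 lower on the Illumina arrays. Kcnj9, a subunit of potassium channels that beta-gamma dimers open, was lower in B6 on both (−2.34 and −0.20, limma adjusted p = 1.06e-08 and 0.00107). Plcb1, a phospholipase C activated by Gq, was higher in B6 on the Affymetrix arrays (0.53), with an Illumina difference of 0.0021 (limma adjusted p = 0.974). Plcb2, of the same family, was higher in B6 on the Illumina arrays (0.16), with an Affymetrix difference of −0.06 (limma adjusted p = 0.532). Among binding partners 1 of 19 and 1 of 11 were called, in both cases Gpr158, a receptor that binds Rgs7, which was higher in B6 (2.00 and 0.25, limma adjusted p = 3.25e-10 and 0.00607). Of receptor kinases and arrestins, 2 of 7 and 2 of 5 were called. The arrestin gene Arrb1 was higher in B6 on both arrays (0.21 and 0.26) and Arrb2 lower in B6 on both (−0.39 and −0.46). On the Illumina arrays 7 of 15 effectors, 8 of 11 partners and 3 of 5 kinases and arrestins were detected on every array. The Illumina means of Kcnj9 (8.92 in B6 and 9.12 in D2), Plcb2 (9.01 and 8.85) and Arrb1 (9.12 and 8.86) were low. The dim Gnas probe ILMN_3075080 had 9.02 and 9.09. Arrb2 (10.12 and 10.58) and Gpr158 (14.35 and 14.10) were brighter there. The Affymetrix probeset of Gpr158 had means of 5.635 in B6 and 3.632 in D2. Low Affymetrix means were also those of Plcb1 (5.538 in B6 and 5.004 in D2) and Kcnj3 (3.947 and 4.185), the other effector called lower in B6 there. Each gene of these lists is given by its probe of lowest adjusted p, and its other probes are not shown. The median differences of these lists were −0.06, −0.02 and −0.13 on the Affymetrix and 0.0028, 0.03 and −0.06 on the Illumina arrays.

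The forms known for the striatum, Gnal, Gng7 and Rgs9, gave 0 of 3 calls on each array. Gnal encodes the alpha subunit Golf, which couples dopamine and adenosine receptors of striatal neurons to adenylyl cyclase, and its differences were 0.07 and −0.04 (limma adjusted p = 0.544 and 0.672). Both come from dim probes, at the 32.9th percentile of probesets and the 30.4th percentile of Illumina probes, the Illumina probe being detected on 21 of 24 arrays. Its bright probesets, with means of 11.57 in B6 and 11.49 in D2 and of 11.21 in B6 and 11.23 in D2, were not called either (limma adjusted p = 0.685 and 0.960). Gng7 differed by 0.07 and −0.07 (limma adjusted p = 0.749 and 0.686). Rgs9, which forms a complex with Gnb5, differed by −0.48 at 1 Affymetrix probeset (limma adjusted p = 0.0261), by 0.18 and 0.05 at the others (limma adjusted p = 0.321 and 0.785) and by 0.13 on the Illumina arrays (limma adjusted p = 0.455).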

How the data were processed

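RNA of dissected striatum was assayed on 20 Affymetrix and 24 Illumina arrays. The Affymetrix values were deposited by the authors as log2 RMA values, background corrected, quantile normalized and summarized after probes over a strain SNP or with non-unique matches had been masked, and the labels name MAS5 5.0 in their processing notes, whose calls were not used here. The Illumina values were deposited by the authors as VST values, a scale close to log2, with robust spline normalization named in the methods (the values have nearly equal distributions on every array), and the table keeps probes detected on at least 7 arrays. The GenomeStudio bead intensity per probe and its detection p-value, also deposited by the authors, served for alternatives and counts of detected arrays. The authors' own comparisons were not used, and RNA-Seq was not used here.

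Strain differences were fitted over all 38870 Affymetrix probesets with values (strain and sex) and all 14185 Illumina probes (strain) in R 4.3.3 with limma 3.58.1 (lmFit, eBayes; statmod 1.5.0) and no filter on low values, with a call at a p under 0.01 after Benjamini-Hochberg adjustment. The sources name the mice of the 2 arrays as separate mice, 1 per array, and the number of arrays limits the precision. For counts of genes, the probe of lowest adjusted p stood for the gene. Named with full values are 18 genes: those called on both arrays (Gnb1 and Gnb4), up to 6 called on 1 array (Rgs20 and Rgs16 were the only ones), and 16 chosen by role, which include Gnb1 and Gnb4. The members, lists and named genes were chosen with earlier results of these data known. Gene names are those of the platform annotation, and values of Gnaz, Gng8 and of other members named in single sentences were chosen after they had been seen. The scripts were tested on simulated data. Alternatives covered filters, normalization, covariates, variance models, array weights, thresholds, single sexes, the replicate number as a block and leaving out each array. Correlations used 100000 permutations.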

Additional observations from a re-analysis of the deposited data

Results flagged for a closer look

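In 38 groups of 10 Affymetrix arrays at named probesets, 5 values lay far from the others of their strain by Dixon's criterion, which chance gives in about 1 of 20 groups. Array B6 64 had 9.75 at Gnb1 (1417432_a_at), with the other B6 arrays from 8.05 to 8.64, and this array lay between the strains over many other probesets too. Array B6 67, which had the highest level of thalamus markers, had 7.62 at Rgs16 (1451452_a_at), with the others from 6.09 to 6.79, and 9.33 at Rgs14 (1419221_a_at), with the others from 9.76 to 10.16. Array B6 70 had 10.24 at Rgs8, with the others from 9.61 to 9.94. Array D2 74 had 8.71 at Gnai1 (1427510_at), with the others from 8.92 to 9.12. No cause was tested for any of them.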

How the results depend on the processing

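The Gnb1 calls, the Gnb4 call at ILMN_2726905 and all their directions stayed under every alternative run on their array. The count of called member probesets on the Affymetrix arrays was 4, where 7.18% of all probesets were called. It was 8 at a threshold of 0.05 (11.2% of all), 3 in female mice alone (2.52%) and 2 in male mice alone (3.14%). With the upper 50% of probesets, quantile normalization, a variance trend or an estimated share of true nulls it was 5, Gng3 added (7.1% to 9.7% of all). On leaving out each array it was 4 to 5 (6.52% to 7.69% of all). The count of called Illumina probes was 4, where 8.64% of all probes were called. It was 2 with log2 bead signals centred on each array's median (7.63% of all), and 4 to 5 on leaving out each array (7.61% to 8.83%). Of genes called on both arrays, 1 was left, Gnb1, with the probe of the highest mean for each gene in place of the lowest adjusted p, and 2 at the other settings. For strain by sex and for sex the count was 0 at each setting. Over 430 comparisons of a named probe with an alternative, which count of the omissions of single arrays the one with the highest adjusted p, 400 kept direction and call, 7 lost a call, 6 gained one and 17 reversed, all 17 at probes without a call. On the Affymetrix arrays Gnaq was 0.016 with females alone and Rgs10 0.022 with males alone. On the Illumina arrays, centred log2 bead signals gave Rgs10 0.0192, Rgs14 0.0195, Gng3 0.0148 and Rgs2 −0.0186. Array weights gave Gnb5 −0.0363, Rgs2 −0.0419 and Gnaq −0.109. Without the 4 dimmest D2 arrays Gnb5 was −0.0802, Gng3 0.0601, Rgs2 −0.0562 and Gnaq −0.189. On leaving out each array, 7 of 36 named probes changed sign at least once: Rgs10 (−0.07 to 0.0115) and Rgs14 (−0.09 to 0.0116) on the Affymetrix arrays, and Gnaq (−0.0237 to 0.16), Rgs10 (−0.18 to 0.11), Rgs2 (−0.0253 to 0.0460), Rgs4 (−0.0122 to 0.0642) and Rgs8 (−0.0176 to 0.10) on the Illumina arrays. At the omission with the highest adjusted p, Rgs2 was −0.00103 and Rgs8 −0.00383. The cause was not tested.

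Replicate numbers did not pair the Illumina arrays (correlation of deviations −0.42 to 0.28, over 0.1 in 3 of 12 pairs). With the replicate number as a block, 3 member probes were called, beside 6.3% of all probes, and Gnb4 ILMN_1240125 was not (−0.30, adjusted p = 0.0234). The series' value table of the Illumina arrays is the normalized table with 0 differing values, so that alternative was not run. Dim probes limit what the Illumina arrays can show: 10 of 43 member probes were not detected on every array.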
